A study of Mus musculus with 9 samples.

Results

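The CC chemokine ligands described here are the 10 genes Ccl2, Ccl3, Ccl4, Ccl5, Ccl6, Ccl7, Ccl8, Ccl9, Ccl11, and Ccl19, chosen by symbol from the 43346 genes of the deposited table. All 10 were measured in sorted lung fibroblasts from 9 aged mice of a Col1a1-GFP strain. The 4 aged sham mice had received intratracheal saline and the 5 aged bleo mice 1 dose of bleomycin, a DNA-damaging drug that scars the lung, and all lungs were taken at day 30. The labels give an age of 72 weeks and the series text 18 months, and the methods describe male mice on an FVB background. In this strain a collagen I promoter drives GFP, so the sort took GFP+ cells that lacked CD45, CD31, and EpCAM, the surface markers of hematopoietic, endothelial, and epithelial cells. The reporter marks cells in which the promoter is or has been active and does not separate types of fibroblast.

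CC chemokines are small secreted proteins with a pair of adjacent cysteines near the N-terminus. They bind to glycosaminoglycans of the matrix and to G protein–coupled receptors on leukocytes, and they direct the traffic of monocytes, lymphocytes, and eosinophils into tissue. In the lung they are made by macrophages and other leukocytes and also by fibroblasts and epithelium. CCL2, CCL7, and CCL8 are monocyte chemoattractant proteins, CCL11 (eotaxin) attracts eosinophils through CCR3, CCL3, CCL4, and CCL5 attract monocytes and T cells, CCL6 and CCL9 are rodent ligands of CCR1, and CCL19 guides CCR7+ dendritic cells and T cells.

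Between aged bleo and aged sham, 4 of the 10 genes rose (Ccl3, Ccl4, Ccl6, and Ccl9) and 2 fell (Ccl7 and Ccl11), while Ccl2, Ccl5, Ccl8, and Ccl19 did not pass the thresholds. The largest rises were 17.4-fold for Ccl4 and 15.5-fold for Ccl3, and Ccl11 fell 3.45-fold. Read counts were compared by the quasi-likelihood test of edgeR, with Benjamini-Hochberg adjustment over 16877 genes (FDR), and a gene was called differentially expressed at an FDR below 0.10 with a fold change above 1.5. Among all genes tested, 23.8% were called, 12.3% higher and 11.5% lower, and these shares are the background to the counts of 6, 4, and 2 of 10. The median log2 fold change was 0.07 over the 10 genes and 0.01 over all genes tested.

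The genes lie in 3 places in the mouse genome (GRCm38). Ccl2 (ENSMUSG00000035385, chromosome 11, 82035571 to 82037453), Ccl7 (ENSMUSG00000035373, 82045712 to 82047525), Ccl11 (ENSMUSG00000020676, 82057823 to 82062955), and Ccl8 (ENSMUSG00000009185, 82115185 to 82116799) follow each other on the + strand. A gap of 1408979 bases separates them from Ccl5 (ENSMUSG00000035042, 83525778 to 83530518), Ccl9 (ENSMUSG00000019122, 83572919 to 83578636), Ccl6 (ENSMUSG00000018927, 83587882 to 83593087), Ccl3 (ENSMUSG00000000982, 83647844 to 83649355), and Ccl4 (ENSMUSG00000018930, 83662584 to 83664683) on the same chromosome. Ccl19 (ENSMUSG00000071005, 42754525 to 42756577) is on chromosome 4. The 4 genes that rose were all in the second group, in which only Ccl5 was not called, and the 2 that fell were both in the first. All are protein-coding genes with the same positions in the GENCODE M21 annotation. Ccl6 overlaps E230016K23Rik (7 to 52 counts) and Ccl19 overlaps 4930578G10Rik (10 to 32 counts), and reads of such pairs may not be told apart since the strand setting of the counting is not stated.

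RefSeq promoter sequences (GRCm38.p6) were at hand for 5 of the 10 genes, Ccl3, Ccl6, Ccl8, Ccl9, and Ccl19. The study ran a de novo motif search over a wider region around the starts of its differentially expressed genes. It names Ccl3 and Ccl4 among the genes with binding sites of the calcium-regulated factor NFATc1, which it went on to examine. Here GGAAA, the short core that NFAT proteins bind, was searched on both strands in only the 250 bases before each RefSeq start. The matches are therefore not comparable with those of the study. The windows of Ccl3, Ccl9, and Ccl6, which rose together, and of Ccl8, which did not pass the thresholds, are printed 5′ to 3′ on the strand of the gene, with GGAAA or its reverse complement TTTCC in capitals. They lie at chr11:83649379-83649628 on the − strand for Ccl3, chr11:83578637-83578886 on the − strand for Ccl9, chr11:83593088-83593337 on the − strand for Ccl6, and chr11:82114935-82115184 on the + strand for Ccl8.
Ccl3: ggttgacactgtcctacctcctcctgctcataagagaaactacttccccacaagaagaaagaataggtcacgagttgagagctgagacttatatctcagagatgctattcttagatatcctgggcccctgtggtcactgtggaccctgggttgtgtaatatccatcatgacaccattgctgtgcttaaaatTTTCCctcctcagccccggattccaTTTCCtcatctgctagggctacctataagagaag
Ccl9: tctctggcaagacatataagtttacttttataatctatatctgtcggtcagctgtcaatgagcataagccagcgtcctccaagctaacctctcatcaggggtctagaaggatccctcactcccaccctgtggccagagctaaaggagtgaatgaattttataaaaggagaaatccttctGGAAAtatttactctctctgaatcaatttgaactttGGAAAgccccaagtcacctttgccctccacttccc
Ccl6: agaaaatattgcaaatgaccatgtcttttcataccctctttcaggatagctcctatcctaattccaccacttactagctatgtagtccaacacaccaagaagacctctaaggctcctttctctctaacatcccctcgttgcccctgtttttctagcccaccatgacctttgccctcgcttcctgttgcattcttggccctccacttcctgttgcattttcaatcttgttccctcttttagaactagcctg
Ccl8: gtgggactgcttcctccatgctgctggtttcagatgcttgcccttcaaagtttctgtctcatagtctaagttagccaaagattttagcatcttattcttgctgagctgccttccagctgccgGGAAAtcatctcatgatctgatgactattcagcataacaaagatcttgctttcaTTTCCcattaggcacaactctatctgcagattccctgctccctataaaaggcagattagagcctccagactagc
The core was present 2 times in the windows of Ccl3, Ccl8, and Ccl9 and had no match in those of Ccl6 and Ccl19. In the Ccl3 window, the matches began 59 and 34 bases before the start, and in the Ccl9 window 71 and 35 bases before it. The AP-1 pattern TGANTCA, also searched on both strands, was found in the Ccl9 window alone among these 5 and did not overlap GGAAA. Over all 32851 promoter windows of the same length, 55.6% held GGAAA on either strand and 6.75% held TGANTCA. The matches are a description of letters and do not show binding.

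Before the results, some facts on the libraries bear on their reading. Total counts ran from 49921946 to 62370512 in the sham libraries and from 53833507 to 68260600 in the bleo libraries, and each of the 10 genes had at least 30 counts in every library. Collagen genes and Pdgfra, which mark fibroblasts, were abundant throughout, with Col1a1 at 4154 ± 407 CPM (counts scaled to library size; SD, n = 4) without injury and 20853 ± 4970.3 CPM (SD, n = 5) after bleomycin. Transcripts of cells that the gate should have removed were present as well, as Ptprc, which encodes CD45, had between 1647 and 13428 counts. The summed level of 10 pan-leukocyte genes spanned 182 to 663 CPM in uninjured and 209 to 1035 CPM in injured mice, highest in aged sham 4 and aged bleo 4. Since these are bulk samples, more cells of a type and more RNA per cell cannot be told apart.

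**Figure D1:**
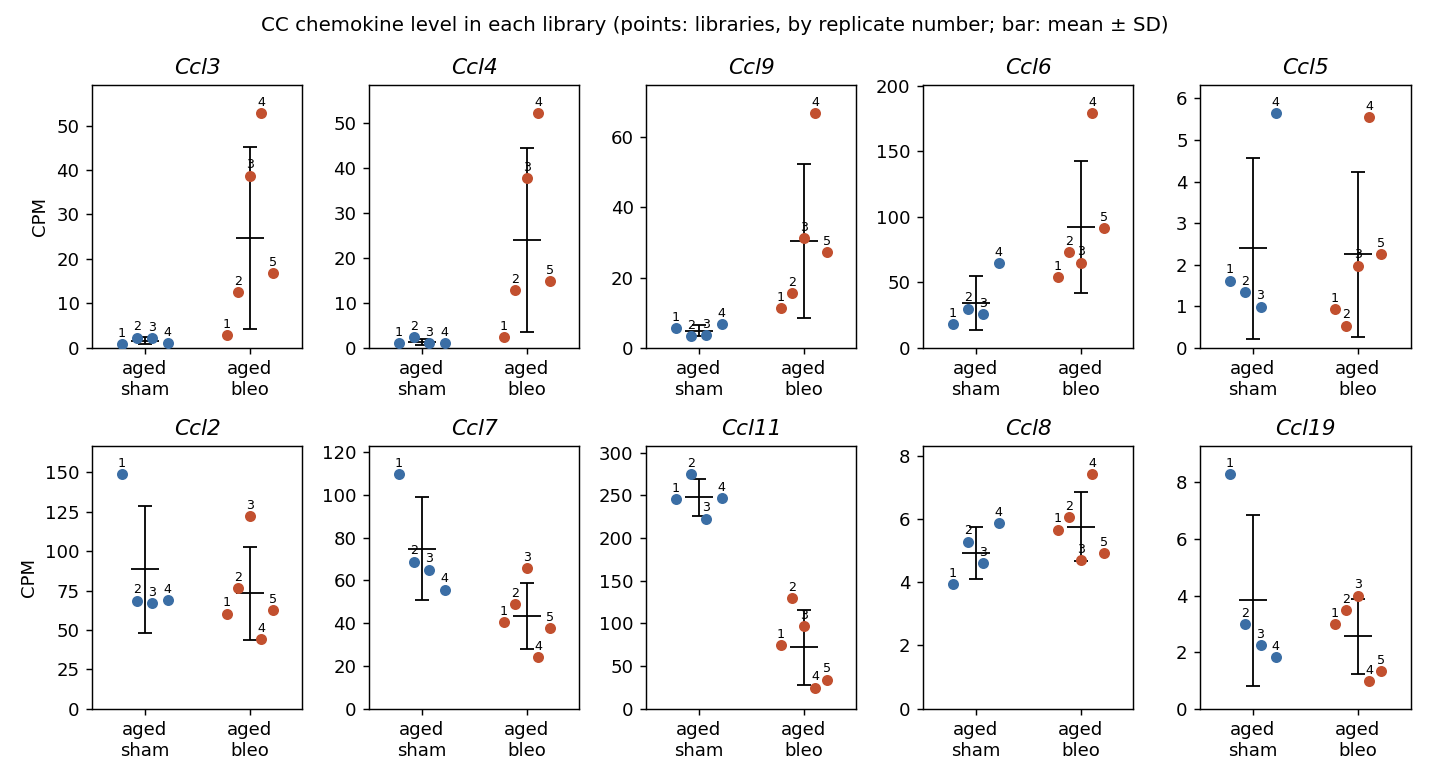
Level of each CC chemokine in CPM (vertical axes start at 0) in the 4 aged sham and 5 aged bleo libraries; points are libraries with their replicate number and bars are the mean ± SD. Ccl3 and Ccl9 lay higher in all aged bleo libraries, Ccl11 lay lower in all of them, and aged bleo 4 had the highest Ccl3, Ccl4, Ccl6, and Ccl9.

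Ccl3 and Ccl4 encode the macrophage inflammatory proteins 1α and 1β, which are secreted by activated macrophages and other leukocytes. Ccl3 was at 0.808, 2.33, 2.12, and 1.15 CPM in aged sham 1 to 4 and at 2.79, 12.6, 38.7, 52.8, and 16.9 CPM in aged bleo 1 to 5. Every aged bleo library was thus above every aged sham library, but aged bleo 1 was above them by a small margin. The log2 fold change was 3.95 (standard error 0.81, FDR 0.00643). Of all genes tested, 32.2% had no overlap between the groups and 16.1% were higher in all aged bleo libraries, the background to the 3 genes (Ccl3, Ccl9, and Ccl11) that did not overlap. Ccl4 was at 1.11, 2.38, 0.974, and 1.03 CPM in the 4 sham libraries, against 2.34, 12.8, 37.7, 52.1, and 14.8 CPM in the 5 bleo libraries (log2 fold change 4.12, standard error 0.83, FDR 0.00618). Here the groups overlapped, because aged bleo 1 was just under aged sham 2. With limma on log2(FPKM + 1), a scale that understates the change of low genes, the log2 fold changes were 2.56 for Ccl3 and 2.67 for Ccl4. With limma on log2 CPM they were 3.46 and 3.56. The spread among injured mice was wide for both, with the highest aged bleo library 18.9 times the lowest for Ccl3 and 22.2 times for Ccl4. The pair kept nearly the same ratio over this range. The ratio of Ccl3 to Ccl4 in FPKM, the deposited values per kilobase of gene length, was 0.847 to 1.03 in aged bleo and 0.624 to 1.88 in aged sham, where both genes had few reads.

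Ccl9 and Ccl6 are neighbours in the same group of genes. Ccl9 was at 5.69, 3.44, 3.72, and 6.86 CPM in the 4 sham libraries, against 11.3, 15.7, 31.3, 66.8, and 27.4 CPM in the 5 bleo libraries, with no overlap between the groups (log2 fold change 2.63, standard error 0.52, FDR 0.00553, or 1.498 with limma on log2(FPKM + 1)). Ccl6 was already abundant before injury, at 18.0, 30.0, 25.5, and 64.6 CPM in aged sham. In aged bleo it was at 54.0, 73.0, 65.2, 179, and 91.4 CPM (log2 fold change 1.42, standard error 0.45, FDR 0.0365). The groups overlapped for Ccl6, as aged sham 4 exceeded aged bleo 1. For Ccl6 the log2 fold change was 1.92 without aged sham 4 and 1.03 without aged bleo 4. Its call held by a narrow margin in the edgeR test without aged sham 1 (FDR 0.0848), aged sham 2 (0.0907), or aged sham 3 (0.0992).

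Ccl5 (RANTES), a product of T cells, NK cells, and macrophages, lies beside these genes and did not pass the thresholds. Its level was 1.62, 1.33, 0.993, and 5.65 CPM in the 4 sham libraries, against 0.930, 0.533, 1.98, 5.55, and 2.25 CPM in the 5 bleo libraries. The 2 highest libraries were aged sham 4 and aged bleo 4, which belong to different groups. The log2 fold change was -0.08 (standard error 0.72, FDR 0.940), and its 95% interval, from -1.69 to 1.52, includes changes of over 2-fold in either direction. Its sign turned without aged sham 4 (0.78), aged bleo 1 (0.11), or aged bleo 2 (0.17).

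Ccl11 was the most abundant of the 10 genes in uninjured mice and was lower in every injured mouse than in any uninjured one. It was at 246, 275, 223, and 247 CPM in the 4 sham libraries, against 74.2, 129.6, 96.5, 24.6, and 34.02 CPM in the 5 bleo libraries. No library overlapped, which also held for 16.1% of all genes tested in this direction, and the log2 fold change was -1.79 (standard error 0.43, FDR 0.0126). Uninjured mice were close to each other, with a highest library 1.24 times the lowest, against 5.28 times among injured mice. Aged bleo 4 and aged bleo 5 had the lowest levels.

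Ccl2 and Ccl7 encode monocyte chemoattractant proteins 1 and 3, ligands of CCR2. Ccl7 was at 109.9, 68.9, 65.1, and 55.7 CPM in the 4 sham libraries, against 40.6, 48.9, 66.0, 24.2, and 37.6 CPM in the 5 bleo libraries. Only aged bleo 3 reached into the aged sham range, and Ccl7 was called lower (log2 fold change -0.79, standard error 0.28, FDR 0.0565). This call did not hold without aged sham 1 (log2 fold change -0.54, FDR 0.164), aged bleo 1 (-0.76, FDR 0.101), or aged bleo 5 (-0.74, FDR 0.116), each time in the same edgeR test. Ccl2 was at 149, 68.6, 67.0, and 68.9 CPM in the 4 sham libraries, against 60.3, 76.6, 122, 44.3, and 62.4 CPM in the 5 bleo libraries. Aged sham 1 alone stood far above the other uninjured libraries. For Ccl2 the log2 fold change was -0.27 (standard error 0.33, FDR 0.553, 95% interval -1.02 to 0.47), and without aged sham 1 it was 0.10. Per kilobase, Ccl2 was below Ccl7 in all 4 aged sham libraries, with a Ccl2 to Ccl7 ratio in FPKM of 0.702 to 0.955, and above it in all 5 aged bleo libraries, at 1.05 to 1.30.

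Ccl8, another monocyte chemoattractant protein, varied little, with a highest library 1.49 times the lowest in uninjured and 1.58 times in injured mice. Its level was 3.94, 5.29, 4.62, and 5.87 CPM in the 4 sham libraries, against 5.67, 6.08, 4.71, 7.44, and 4.93 CPM in the 5 bleo libraries. The groups overlapped, and the log2 fold change was 0.23 (standard error 0.17, FDR 0.333, 95% interval -0.16 to 0.61). Ccl19 was at 8.30, 2.98, 2.24, and 1.82 CPM in the 4 sham libraries, against 2.99, 3.48, 4.00, 0.969, and 1.32 CPM in the 5 bleo libraries (log2 fold change -0.59, standard error 0.55, FDR 0.430, 95% interval -1.82 to 0.64). Aged sham 1 was the highest of all 9 libraries in Ccl19, and the fold change turned to 0.12 on the log2 scale when it was left out. The mouse genome holds near copies of Ccl19, and the counting may not separate them. The copy listed as Ccl19-ps1 had 0 to 170 counts, with the 170 in aged bleo 2, and Ccl19-ps3 had 0 to 6.

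**Figure D2:**
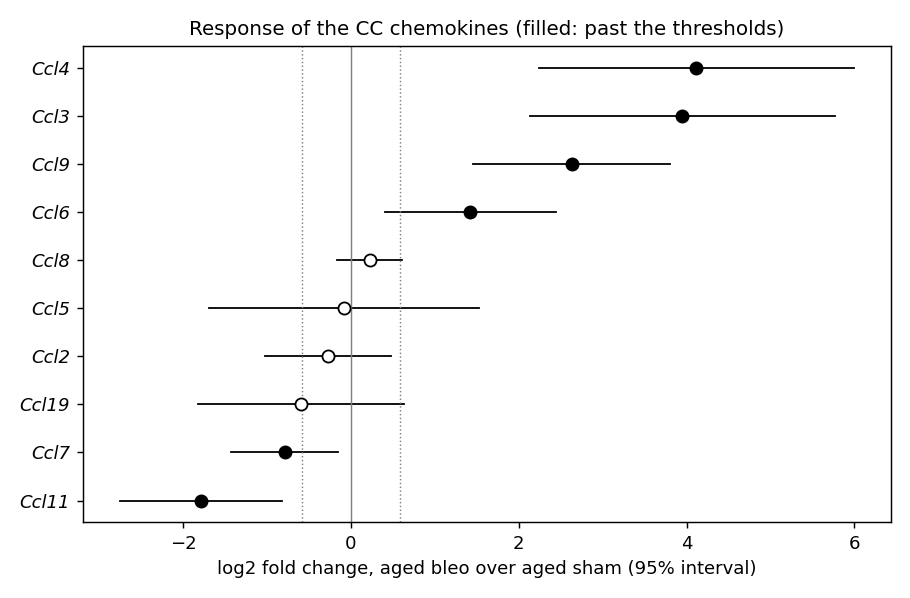
Log2 fold change of each gene between aged bleo and aged sham (horizontal axis), with the 95% interval of the edgeR test; filled points passed the thresholds and dotted lines mark a fold change of 1.5. Ccl3, Ccl4, Ccl9, and Ccl6 lie to the right of 0, Ccl11 and Ccl7 to the left, and the intervals of Ccl2, Ccl5, Ccl8, and Ccl19 cross it.

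Levels of different genes were compared in FPKM. In aged sham the order was Ccl11 (96.0 FPKM), Ccl7 (39.2), Ccl2 (32.5), Ccl6 (8.02), and Ccl8 (4.03), and each of these exceeded the next in all 4 libraries. Ccl19 (1.85 FPKM), Ccl5 (1.04), Ccl3 (0.880), Ccl4 (0.875), and Ccl9 (0.676) followed, and no neighbours among these 5 kept their order in all 4 libraries. The mean FPKM of Ccl11 in aged sham was above that of 98.9% of the genes tested, and that of Ccl3 above 30.5%. After bleomycin the first places drew together, as Ccl11 (28.2 FPKM), Ccl2 (27.4), Ccl7 (23.1), and Ccl6 (22.4) were followed by Ccl4 (15.7) and Ccl3 (14.0). Ccl11 exceeded Ccl2 in 2 of the 5 aged bleo libraries, and Ccl7 exceeded Ccl6 in 3 of 5. Ccl3 was now above 90.9% of the genes tested.

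The makeup of the CC chemokine transcripts therefore differed more than their sum. Summed over the 10 genes, the level reached 395 to 544 CPM without injury and 255 to 468 CPM after it, so the groups overlapped. Ccl11 held on average 52.4% of the summed FPKM in aged sham and 20.6% in aged bleo. Ccl3 and Ccl4 held 0.495% and 0.475% in aged sham and 8.87% and 9.88% in aged bleo, and the share of Ccl6 went from 4.51% to 15.9%. In aged bleo 4, the sum of Ccl3, Ccl4, Ccl6, and Ccl9 was 351 CPM and that of Ccl2, Ccl7, Ccl8, and Ccl11 was 100.5 CPM. The same sums were 70.4 and 181 CPM in aged bleo 1, the injured library in which the second group was most dominant.

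**Figure D3:**
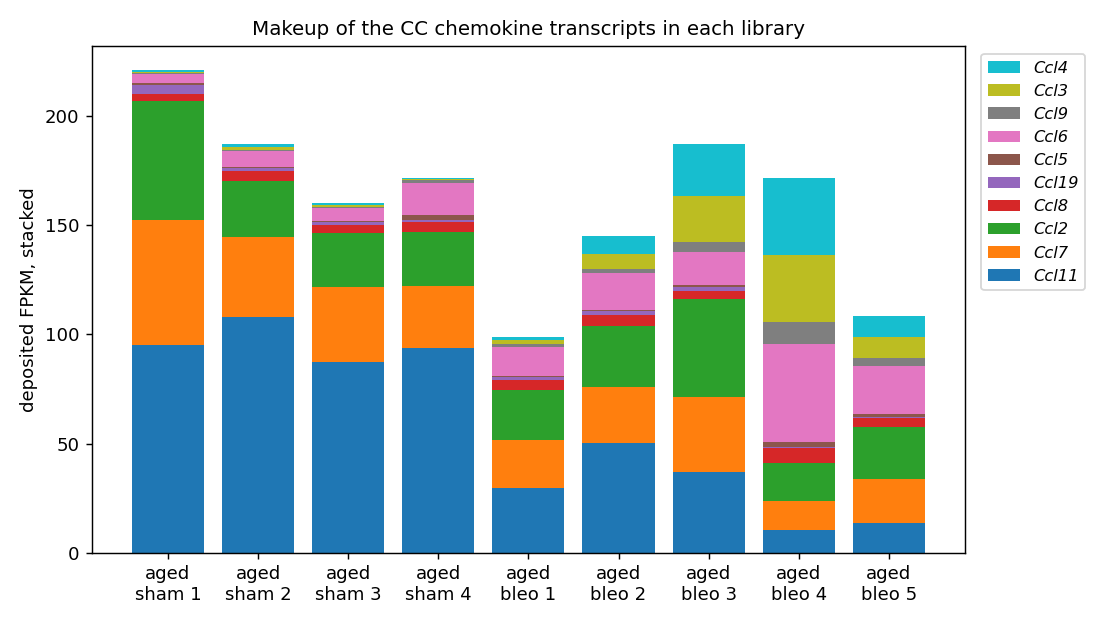
Deposited FPKM of the 10 genes stacked for each of the 9 libraries (vertical axis starts at 0). Ccl11 fills about 52.4% of the aged sham bars and 20.6% of the aged bleo bars on average, where Ccl6, Ccl3, and Ccl4 take larger parts.

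Markers of other cells moved with some of these genes. Among all genes tested, 12.3% were called higher and 11.5% lower, the background to each count of marker genes given here. Of 16 macrophage genes, 8 were called higher in aged bleo and none lower. Their summed level ran from 224 to 384 CPM in uninjured mice and from 649 to 2080.1 CPM in injured mice, without overlap. Of single genes, 16.1% were higher in all aged bleo libraries. Lyz2 was the most abundant, with 373 CPM in aged bleo 1 and 1132 CPM in aged bleo 4, so the sum in injured mice rests largely on this gene. Whether the reads of Lyz2 came from macrophages alone was not tested. Csf1r, C1qa, C1qb, C1qc, Marco, Siglecf, Mertk, and Itgax were not called, and each overlapped between the groups. None of the 16 was at 0 in all libraries. The macrophage genes Lyz2 (lysozyme) and Adgre1 (F4/80) had log2 fold changes of 2.42 and 1.61 (FDR 0.00142 and 0.0418 in the edgeR test), and the call of Adgre1 was lost without aged sham 3 (1.51, FDR 0.108). Among injured libraries the macrophage sum was highest in aged bleo 4, which also had the highest Ccl3, Ccl4, Ccl6, and Ccl9, and lowest in aged bleo 1, which had the lowest of each. The order in between differed, since aged bleo 3 came second for Ccl3 and Ccl4 with a macrophage sum of 765 CPM, under the 922 and 1201 CPM of aged bleo 2 and aged bleo 5. Over the 7 T and NK cell genes tested, 1 was called higher, and the sum of the 12 listed spanned 5.86 to 16.6 CPM before and 2.60 to 35.5 CPM after injury. Aged sham 4 and aged bleo 4, the highest in Ccl5, were also highest in this list and in the list of 8 neutrophil genes, whose sum spanned 221 to 1214 CPM and 122 to 1139.6 CPM. Of the 7 neutrophil genes tested none was called with all libraries, and 6 were called lower without aged bleo 4. Of 10 pan-leukocyte genes 1 was called higher with all libraries. This count turned to 2 lower without aged bleo 4, rose to 2 higher without aged sham 4, and was 0 without aged sham 1, aged sham 2, aged sham 3, aged bleo 3, or aged bleo 5. Of 5 B cell genes tested 4 were called lower, and without aged sham 1 only 2 passed the count filter, of which 1 was called lower. Of 6 mast cell and eosinophil genes 1 passed the filter, Cpa3, which was called higher (log2 fold change 1.47, FDR 0.0169 in the edgeR test). Of the others, which fell under the filter, Mcpt4 and Tpsb2 had 0 CPM in aged bleo 3. The part of these cells in the chemokine results was not tested. With aged sham 4 and aged bleo 4 both left out, an alternative chosen after seeing the data, 4 of the 10 genes were again called higher and 2 lower, and the log2 fold changes were 3.32 for Ccl3, 3.48 for Ccl4, 2.30 for Ccl9, and 1.52 for Ccl6. In that fit 9 macrophage genes were called higher and 5 neutrophil genes lower.

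Lists of adventitial and alveolar fibroblast genes were set beside the fall of Ccl11. Ccl11 is itself in a list of 8 genes of adventitial fibroblasts, the collagen-producing cells around airways and vessels. The 7 others were all called lower in aged bleo, as were 11.5% of all genes tested. The summed level of these 7 lay between 15333.5 and 17381 CPM in uninjured mice and between 2626 and 9095 CPM in injured mice. The most abundant of them was Dcn, which is also a general fibroblast gene. Dcn alone had 7702 to 8943 CPM in uninjured and 1421.5 to 4437 CPM in injured mice, so the sum is not particular to adventitial cells. Aged bleo 4 and aged bleo 5, with the least Ccl11, had the lowest sums, at 2626 and 3241 CPM, and aged bleo 2, with the most Ccl11 of the injured libraries, had the highest. Of 8 alveolar fibroblast genes, 1 was called higher and 3 lower, where 12.3% and 11.5% of all genes were. The summed level of these 8 lay between 2834 and 4517 CPM in uninjured and between 1043 and 3047 CPM in injured mice, with overlap. It too was lowest in aged bleo 4 and aged bleo 5, at 1043 and 1379 CPM, and highest among injured libraries in aged bleo 2. The share of each fibroblast type in the sort was not tested.

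**Figure D4:**
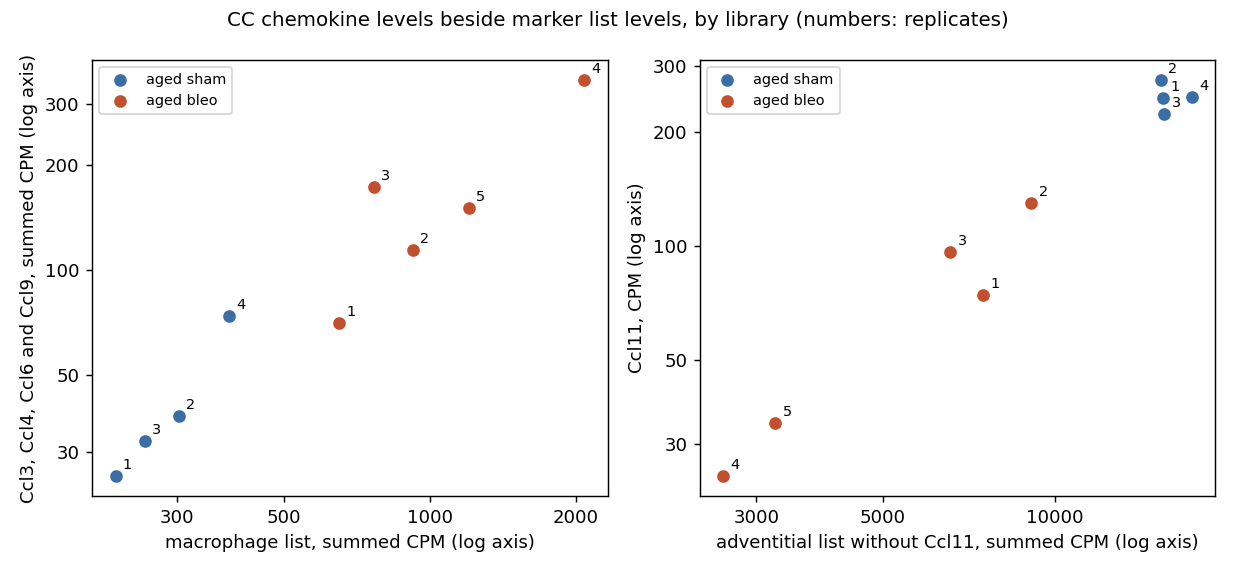
Left, summed CPM of Ccl3, Ccl4, Ccl6, and Ccl9 against summed CPM of 16 macrophage genes; right, Ccl11 in CPM against summed CPM of 7 adventitial fibroblast genes other than Ccl11; all axes are logarithmic, points are libraries, and numbers are replicates. Aged bleo 4 is highest on both axes on the left (351 and 2080.1 CPM) and lowest on both on the right (24.6 and 2626 CPM). Lyz2 is the most abundant gene of the macrophage sum and Dcn of the adventitial sum.

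The remaining CC ligands were scarce. Of 14 listed, 13 were in the table and 6 passed the filter of an average count of at least 25, and 1 of these was called, against 23.8% of all genes. This was Ccl27a, a ligand of CCR10, with 7.50 ± 0.701 CPM (SD, n = 4) before and 4.90 ± 1.53 CPM (SD, n = 5) after injury (log2 fold change -0.62, FDR 0.0536 in the edgeR test), a gene with near copies in the genome. The call did not hold without aged sham 2 (-0.55), aged sham 3 (-0.61), aged bleo 4 (-0.51), or aged bleo 5 (-0.52). Ccl12, the neighbour of Ccl8, fell just short of the filter with an average count of 23.7.

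Among 15 genes for receptors of CC chemokines, 9 passed the filter, of which 2 were called higher and 2 lower, where 12.3% and 11.5% of all genes were. Ccr2, the receptor of CCL2 and CCL7 on monocytes, was called higher, with 2.16 ± 0.902 CPM (SD, n = 4) in uninjured and 12.2 ± 16.1 CPM (SD, n = 5) in injured mice, where aged bleo 1 had 0.986 CPM and aged bleo 4 had 39.7 CPM (log2 fold change 2.51, FDR 0.0777). Its call was lost in 6 of the 9 fits that left out 1 library, each of the 4 aged sham libraries, aged bleo 4, or aged bleo 5, with values between 1.30 and 2.76. The atypical receptors are Ackr2, which takes up and degrades inflammatory CC chemokines, and Ackr1, which binds them without signalling. Both were lower in every injured mouse than in any uninjured one, as were 16.1% of all genes tested. Ackr2 went from 44.1 ± 7.73 CPM (SD, n = 4) to 11.5 ± 6.18 CPM (SD, n = 5) (log2 fold change -1.94, FDR 0.00641 in the edgeR test), and Ackr1 from 11.5 ± 1.55 to 3.44 ± 1.70 CPM (log2 fold change -1.74, FDR 0.00578). Ccr1, Ccr7, Ccr10, Ccrl2, and Ackr4 were tested and not called.

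A list of 22 genes held cytokines and transcription factors known to induce CC chemokines, together with the NF-κB inhibitors Nfkbia and Tnfaip3. Of these genes 20 were tested, 2 were called higher and 2 lower, where 23.8% of all genes were called. Rela, Nfkbia, and Stat6 passed the FDR threshold but not the fold change threshold, and were not called. Their log2 fold changes were -0.47, -0.52, and -0.35 (FDR 0.0155, 0.0334, and 0.0169 in the edgeR test). Each was lower in every injured mouse than in any uninjured one, as were 16.1% of all genes tested. Nfatc3 likewise missed only the fold change threshold but was higher (0.24, FDR 0.0360), with overlap between the groups. Il1a, an alarmin, and Il13, which induces Ccl11 in many cells, were higher in aged bleo, with log2 fold changes of 1.32 and 2.45 (FDR 0.00456 and 0.0459 in the edgeR test), but Il13 reached only 0.837 ± 0.631 CPM (SD, n = 5) and had as few as 2 counts in a library. The Il13 call was lost without aged sham 1 (2.19), aged sham 3 (2.36), or aged sham 4 (2.15), as it was without both aged sham 4 and aged bleo 4 (2.09, FDR 0.137 in the edgeR test). Without aged bleo 3 the gene fell under the count filter and was not tested. Irf1, an interferon-regulated factor, and Tnfaip3, a feedback inhibitor of NF-κB, were lower, by log2 fold changes of -1.62 and -0.62 (FDR 0.00243 and 0.0435). The call of Tnfaip3 was lost without aged sham 1 (-0.49), aged bleo 1 (-0.56), or aged bleo 5 (-0.50). Nfatc1 had 40.6 ± 5.91 CPM (SD, n = 4) before and 40.8 ± 5.50 CPM (SD, n = 5) after injury (log2 fold change 0.01, FDR 0.963). Pim1, a kinase gene that the study also examined, had 199 ± 22.3 and 127 ± 31.5 CPM (log2 fold change -0.65, FDR 0.0245 in the edgeR test). Its fold change fell under the threshold without aged sham 4 (-0.57) or aged bleo 5 (-0.52). The study reported Pim1 as higher in uninjured aged than in uninjured young fibroblasts, and it set injured aged fibroblasts against uninjured young ones. No young mice are among these libraries, so the values of Pim1 and Nfatc1 here do not bear on those comparisons.

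The genes whose levels followed each chemokine most closely from mouse to mouse were found by Pearson's r of log2 CPM over the 9 libraries, centred within each group and given as a description. For Ccl4 the closest of all genes tested was Ccl3 (r = 0.948). For Ccl6 it was Mpeg1, a macrophage gene (r = 0.987), almost level with Bcl11b (r = 0.985) and Slpi (r = 0.979). For Ccl9 it was the MHC class II gene H2-Oa (r = 0.978), almost level with Trim14 (r = 0.977), and for Ccl8 Gngt2 (r = 0.964). Ccl3 was closest to Ccdc134 (r = 0.964) and then to Ms4a2, which encodes the β chain of the high-affinity IgE receptor of mast cells and basophils (r = 0.957). Ccl5 followed the transcript RP23-122P5.3 (r = 0.987), then Fut4 (r = 0.986). Ccl11 was closest to the phosphodiesterase gene Pde7b (r = 0.997), Enpp5 (r = 0.996), and Dpyd (r = 0.994). The closest genes to Ccl2, Ccl7, and Ccl19 were Cgn (r = 0.983), Tet1 (r = 0.986), and Asrgl1 (r = 0.985). The libraries share their depth and cell makeup over all genes, and the highest of many coefficients over 9 points is large for almost any gene.

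**Figure D5:**
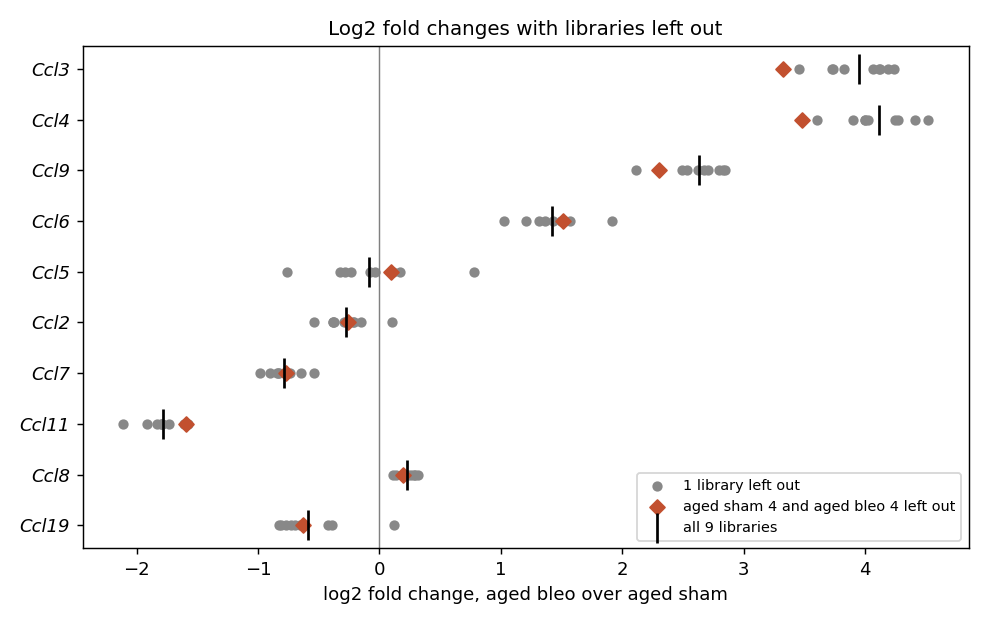
Log2 fold change of each gene (horizontal axis) with all 9 libraries (vertical tick), with each library left out in turn (grey points), and with aged sham 4 and aged bleo 4 both left out (diamond). Ccl3, Ccl4, Ccl6, Ccl9, Ccl7, Ccl8, and Ccl11 stay on their side of 0 in these fits, and Ccl2, Ccl5, and Ccl19 cross it.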

How the data were processed

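RNA-Seq data covered 4 aged sham and 5 aged bleo libraries. The authors deposited whole-number read counts per gene without normalization, and FPKM values scaled by gene length and by a read total 2.27 to 2.42 times the sum of the counts. The submitters' processing notes list STAR 2.5.2b, featureCounts, and GRCm38, and whether counting used strand is not given in the sources used here. Of 42462 shared gene identifiers, 78.8% have the positions of GENCODE M21.

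Groups came from the sample labels. The filter was an average count of 25 or more, and the test was edgeR 4.0.16 (TMM, glmQLFTest) in R 4.3.3, with no covariate, and standard errors were derived from the F statistic. CPM values carry the TMM factors. The alternatives were RLE factors, library size only, DESeq2 1.42.0, limma 3.58.1 on log2 CPM, log2(FPKM + 0.1) and log2(FPKM + 1), a robust fit, no filter, a minimum of 10 counts per library, an FDR under 0.05 with a fold change over 2, each library left out, and replicate numbers as a block. The test was tried on simulated counts. The genes and lists were chosen with earlier results of these data known. Named genes are the 10 chemokines, called genes of the lists, defining markers, Pim1, Nfatc1, and the genes closest to each chemokine. The genes named as not called, Ccl12, and the copies of Ccl19 were added after their values were seen. A called receptor gene is not reported here. No pair of libraries of a group was a duplicate, since their counts differed by at least 30.9 times what counting error gives (chi-square over its degrees of freedom).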

Additional observations from a re-analysis of the deposited data

Results flagged for a closer look

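Of 20 sets of values, those of the 10 chemokines in each group, 3 held a library far from the others, measured as the gap to its neighbour over the range of the group. The cutoffs are set to flag about 1 in 20 sets of independent, normally distributed values. These sets share libraries and some of the genes followed each other closely, so the count is not compared with that rate. Ccl2 in aged sham 1 was at 149 CPM, where the next library had 68.9 CPM, and Ccl4 in aged sham 2 was at 2.38 CPM, where the next had 1.11 CPM. Ccl5 in aged sham 4 was at 5.65 CPM, and the next library had 1.62 CPM. The cause of these values was not tested.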

How the results depend on the processing

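Ccl3, Ccl4, Ccl6, Ccl9, and Ccl11 kept their direction and their calls under every alternative run, Ccl6 by a narrow margin without aged sham 3 (FDR 0.0992 in the edgeR test). The sizes of some did not hold. On log2(FPKM + 1), the log2 fold changes were 2.56 for Ccl3, 2.67 for Ccl4, and 1.498 for Ccl9. In the main test they were 3.95, 4.12, and 2.63. With limma on log2 CPM they were 3.46, 3.56, and 2.40, and on log2(FPKM + 0.1) 3.37, 3.48, and 2.28. Ccl7 was not called at the stricter thresholds (FDR below 0.05, fold change above 2). With each library left out in turn, its log2 fold change ranged from -0.99 to -0.54, that of Ccl2 from -0.54 to 0.10, that of Ccl5 from -0.76 to 0.78, and that of Ccl19 from -0.82 to 0.12. Of the other genes named, sign changes with 1 library left out were seen for Ptprc (-1.30 to 0.12), S100a8 (-1.69 to 0.39), Cd3e (-1.27 to 0.17), Epcam (-0.15 to 0.37), Ccr1 (-1.29 to 0.27), Ccrl2 (-1.20 to 0.10), and Nfatc1 (-0.067 to 0.10). Without both aged sham 4 and aged bleo 4, the values were 0.10 for Ccl5, -0.22 for Epcam, and -0.067 for Nfatc1. Between 5 and 6 of the 10 genes were called in the fits that left out 1 library. Over all genes, 4022 were called, 1785 on log2(FPKM + 1) and 2158 at the stricter thresholds. Of the other CC ligands, 0 were called by limma on log2(FPKM + 0.1) or log2(FPKM + 1), at the stricter thresholds, with the replicate block, and without both aged sham 4 and aged bleo 4, and 0 to 2 with each library left out. On log2(FPKM + 1), 2 receptors and 1 of the regulators were called, against 4 each in the main test. The cause of these differences was not tested.

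The replicate numbers share no stated origin, and the deviations of same-numbered libraries correlated from -0.13 to 0.33, so they were not taken as pairs, and 2 of the 8 libraries correlated best with their own number. With replicate number as a block in 8 libraries, 3541 genes and 6 of the 10 chemokines were called, against 3525 and 5 in the same 8 libraries without it.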
